A study of Homo sapiens with 16 samples.

Results

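Of 20968 merged BMAL1 regions, 612 had a peak at 4 or more of the 6 times sampled in U2OS-CHRONO and at none of the 6 times sampled in the wild-type line U2OS, labelled U2OS_WT, which is 2.92% of all regions. A merged region joined every peak of the 12 BMAL1 lists that shared at least 1 bp. These 612 regions are called members below. Members were chosen by the presence of peaks in the lists of both lines, so that presence, the number of times and the scores are given as a description, and the difference between the lines was not tested. The opposite pattern, a peak at 4 or more U2OS times and none in U2OS-CHRONO, held for 50 regions, or 0.238% of all. With each U2OS-CHRONO list, the longer one, cut to the length of the U2OS list, 159 regions met the rule and 89 the opposite one. That cut removes U2OS-CHRONO peaks only, so the opposite count could hardly fall.

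U2OS is a human osteosarcoma cell line, and U2OS-CHRONO, labelled U2OS_CHR, has the same cell type label and takes its name from the protein CHRONO. The sources used here do not give how it was made, what drives its construct or whether it is 1 clone. Both lines received 200 nM dexamethasone, a glucocorticoid used to bring the clocks of a culture into step, and were then collected at 4 h intervals at times labelled 0, 4, 8, 12, 16 and 20 h, with 1 BMAL1 library per line and time. Per the labels, collection began 4 h ahead of the trough of a luciferase reporter driven by the BMAL1 promoter. A further library of U2OS-CHRONO was precipitated with an antibody to Myc, carries no time or treatment label, and has Myc-CHRONO as its target in the series design. With 1 library per line and time there were no replicates, read depth was unknown, and peak calls were the measured quantity.

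BMAL1 forms a heterodimer with CLOCK that binds E-boxes, above all the hexamer CACGTG, and drives genes such as the PER, CRY and NR1D genes, whose products feed back on the pair. CHRONO, encoded by CIART, binds BMAL1 and represses that activation. Other basic helix-loop-helix proteins, MYC with MAX among them, recognise the same hexamer.

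The sequences below are upstream stretches of promoters that members overlap, taken from RefSeq promoters on GRCh38.p14. They are shown as examples with and without the hexamer. At MLX and FOXD1 the printed stretch runs past the edge of the member. CACGTG stands in capitals. Each stretch covers the 250 bases before the annotated start site, 5′ to 3′ on the strand of the gene. CD2BP2 (chr16:30355309-30355558, minus strand), TLE3 (chr15:70097918-70098167, minus strand) and UBAP2 (chr9:34048888-34049137, minus strand) hold the hexamer inside the member. MLX (chr17:42566850-42567099, plus strand) does so too and was picked after its values were seen, since its product is itself an E-box binding factor. PAPSS1 (chr4:107720235-107720484, minus strand) and FOXD1 (chr5:73448778-73449027, minus strand) lack it.
CD2BP2: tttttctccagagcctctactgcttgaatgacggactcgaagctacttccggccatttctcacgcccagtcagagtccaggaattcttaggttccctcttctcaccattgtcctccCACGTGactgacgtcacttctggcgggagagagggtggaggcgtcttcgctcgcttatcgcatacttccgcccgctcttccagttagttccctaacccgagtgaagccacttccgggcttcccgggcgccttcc
TLE3: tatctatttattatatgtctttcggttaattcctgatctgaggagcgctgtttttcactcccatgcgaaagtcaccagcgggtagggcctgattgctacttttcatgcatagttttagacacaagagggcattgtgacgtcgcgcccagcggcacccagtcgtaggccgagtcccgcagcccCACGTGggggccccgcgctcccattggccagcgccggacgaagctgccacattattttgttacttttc
UBAP2: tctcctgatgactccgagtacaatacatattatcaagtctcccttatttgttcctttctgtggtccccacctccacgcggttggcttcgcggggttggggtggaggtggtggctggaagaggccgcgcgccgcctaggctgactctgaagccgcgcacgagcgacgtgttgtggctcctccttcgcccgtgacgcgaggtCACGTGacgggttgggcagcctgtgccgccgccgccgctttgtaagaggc
MLX: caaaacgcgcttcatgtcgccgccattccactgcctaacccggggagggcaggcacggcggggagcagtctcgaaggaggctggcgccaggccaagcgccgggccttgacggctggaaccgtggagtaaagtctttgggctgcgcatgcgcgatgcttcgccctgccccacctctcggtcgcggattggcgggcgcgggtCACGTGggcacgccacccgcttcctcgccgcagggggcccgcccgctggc
PAPSS1: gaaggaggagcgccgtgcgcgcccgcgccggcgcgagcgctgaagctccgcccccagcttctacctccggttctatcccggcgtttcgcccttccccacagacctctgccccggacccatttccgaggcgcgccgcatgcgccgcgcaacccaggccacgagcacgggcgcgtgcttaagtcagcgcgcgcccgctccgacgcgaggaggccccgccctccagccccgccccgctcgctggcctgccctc
FOXD1: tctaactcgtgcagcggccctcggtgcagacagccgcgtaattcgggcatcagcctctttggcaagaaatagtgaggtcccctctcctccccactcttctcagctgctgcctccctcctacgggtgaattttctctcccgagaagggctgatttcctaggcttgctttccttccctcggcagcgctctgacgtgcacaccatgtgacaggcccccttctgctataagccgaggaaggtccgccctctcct
The first base of the hexamer lies at -134 from the start site at CD2BP2, at -68 at TLE3, and at -50 at both UBAP2 and MLX.

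RefSeq promoter windows, 250 bases before to 50 after a start site, were overlapped by 136 members (22.2%), which touched 190 windows of 166 genes. CACGTG, which reads the same on both strands, occurred in 49 of the 190 windows, or 25.8% (Wilson 95% interval 20.1 to 32.4%, counting error only). Of all 35116 RefSeq windows, 7.26% held it. Regions with a peak at 4 or more U2OS-CHRONO times and at least 1 U2OS time, 2871 in number and called shared regions below, touched 1003 windows, and 43.4% of those held it (40.3 to 46.5%). Under all merged BMAL1 regions 974 of 4216 windows held it, or 23.1% (21.9 to 24.4%), which lies within the interval of the members. The member share was thus near that of BMAL1 regions in general and below that of shared regions. Windows share members and genes, so no test was made across them. With each gene counted once the share was 25.9% for members, 25.1% for all merged regions and 47.9% for shared regions.

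The 44 distinct hexamers of these windows lay from -247 to 35 around the start site, with a median of -50, and 43 of them fell inside the member itself. Those 43 had a median distance of 58 bp from the centre of the region. Adding CACGTT, or AACGTG on the other strand, gave a member share of 35.3% (28.8 to 42.3%), against 30.3% under all merged regions, 50.9% under shared regions and 12.2% of all windows. The looser CANNTG, which includes CACGTG, stood in 68.9% of member windows, 64.8% of those under all merged regions and 68.7% of all windows. GGGCGG or its complement CCGCCC, the GC box of many promoters, stood in 80.5% of member windows (74.3 to 85.5%), 73.3% of those under all merged regions, 74.4% of shared windows and 45.0% of all windows. TGANTCA, the AP-1 motif, stood in 3.68% of member windows (1.80 to 7.41%), 6.85% of those under all merged regions, 8.77% of shared windows and 7.71% of all windows.

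Strength is given as the mean score percentile, the rank of a region's best peak by the authors' score within each U2OS-CHRONO list, on a scale to 100, averaged over the 6 times with 0 where there was no peak. Of the 12 members with the highest mean, 0 lay within 1 kb of an end of a protein-coding gene and 2 were overlapped by a Myc peak. The members ranked 13 and 14, at PAPSS1 and CD2BP2, do overlap a gene end, and their means of 75.5 are close to the 76.3 of member 12. Over all members 26.5% lay within 1 kb of a gene end.

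The top member stood apart from the others in its scores. It spans 5376501 to 5378586 on chromosome 12 (hg38), overlaps no protein-coding gene, and lies 51745 bp from the nearest gene end, that of NTF3, which encodes neurotrophin-3. Its scores were 428.49 at 0 h, 616.55 at 4 h, 158.01 at 8 h, 380.5 at 12 h, 528.04 at 16 h and 380.6 at 20 h, the highest of any member in each of the 6 lists. Within the lists it ranked 197, 171, 285, 81, 170 and 213 at those times. Its mean percentile was 96.0, and that of the next member was 87.0. At 2086 bp it was the widest member, built from 13 peaks of 6 libraries. The nearest U2OS peak of any time was 427663 bp away, and no Myc peak touched it. It was not the only member there. Another, at 5379721 to 5380480, had a mean percentile of 55.0 and lay 425769 bp from any U2OS peak. A further one, at 5441350 to 5442166 inside NTF3, had 45.7 and lay 364083 bp from any.

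The second member lies in ST3GAL3, a sialyltransferase gene, at 43836353 to 43836949 on chromosome 1. Its scores ran from 127.25 at 8 h to 348.39 at 4 h, and it carried a Myc peak with a score of 53.73. A U2OS peak called at 1 time lies 487 bp away, in a region with no U2OS-CHRONO peak, and another member ends 7 bp short of that same U2OS region on its other side. The third member, at 63138752 to 63139379 on chromosome 20, lies 56049 bp from YTHDF1, which encodes a reader of N6-methyladenosine in RNA. It scored 262.66, 238.87, 73.43, 131.04, 271.18 and 184.21 at 0, 4, 8, 12, 16 and 20 h and had a Myc peak with a score of 88.3. Both members had a peak at every time, and in the YTHDF1 region 8 h was the lowest.

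Of the next 9 members, 5 lie in or near CPA5, a carboxypeptidase, LMNA, which encodes lamin A and C, PC, pyruvate carboxylase, SLC35D1, a nucleotide sugar transporter, and TPCN2, a lysosomal cation channel. The LMNA region, at 156127123 to 156127607 on chromosome 1, scored 104.83, 187.24, 93.29, 174.29, 266.07 and 183.77 at 0, 4, 8, 12, 16 and 20 h. The PC region, at 66892094 to 66892601 on chromosome 11, scored between 69.69 at 8 h and 304.34 at 20 h. The others lie 8535 bp from DAB2IP, a GTPase activator for Ras, 11860 bp from KLHDC4, 12726 bp from GADD45B, a stress response gene, and 57497 bp from DTL, a substrate receptor of a ubiquitin ligase. All 12 had a peak at 6 of 6 times, which their mean over 6 times favours. Of these 12, 4 had a U2OS peak within 1 kb, those at ST3GAL3, DAB2IP, KLHDC4 and DTL.

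**Figure D1:**
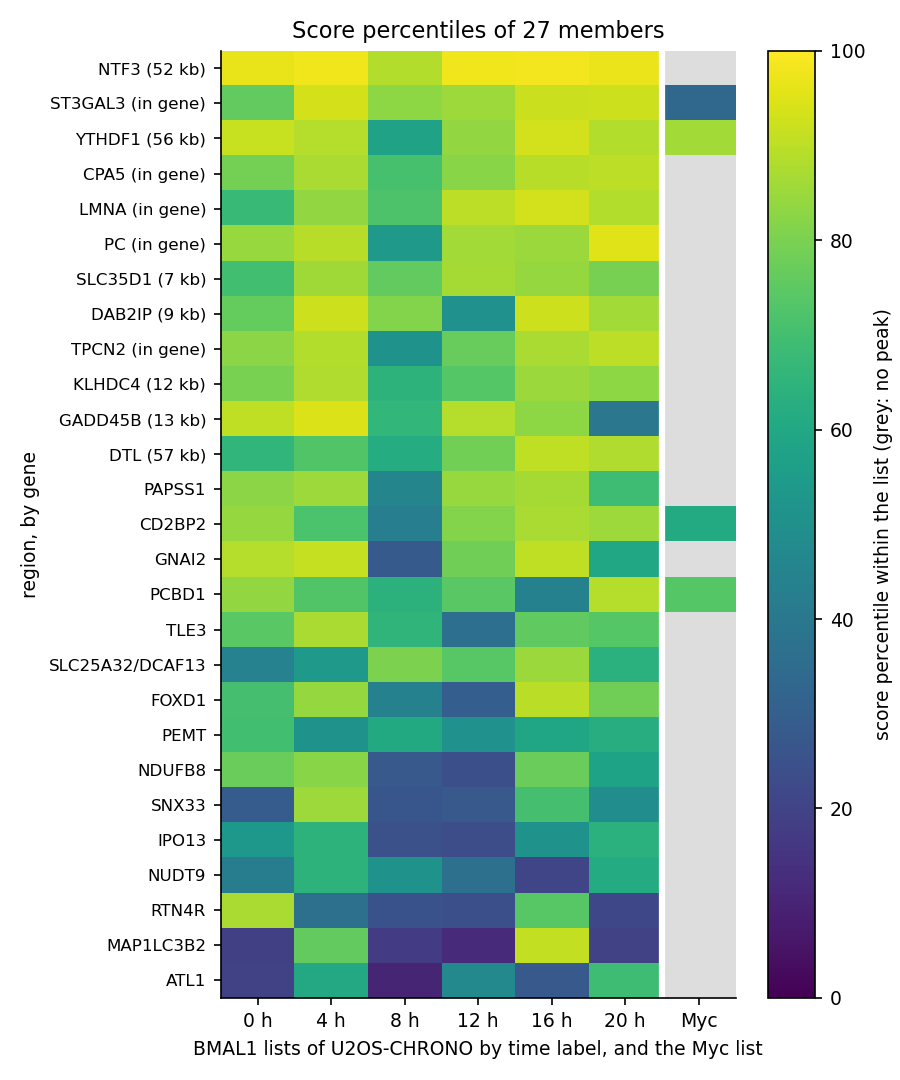
Score percentile within each list (colour; grey, no peak) of 27 members, the 12 with the highest mean percentile and the 15 at gene ends with a peak at all 6 times, for the 6 BMAL1 lists of U2OS-CHRONO and the Myc list. Rows run from the highest mean (NTF3, 96.0) to the lowest (ATL1, 39.1), and 4 of the 27 had a Myc peak.

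Of the members at gene ends, 15 were called at 6 of 6 U2OS-CHRONO times, and 13 of the 15 lay over 10 kb from any U2OS peak. The most highly ranked was at PAPSS1, which makes the sulfate donor PAPS. It spans 107720027 to 107720604 on chromosome 4 and scored 159.53, 197.99, 63.75, 135.98, 180.09 and 104.66 at 0, 4, 8, 12, 16 and 20 h. The CD2BP2 member, at 30355150 to 30355601 on chromosome 16, scored 172.23, 123.65, 62.28, 122.47, 190.58 and 162.77 at those times and had a Myc peak scoring 62.06. CD2BP2 encodes a protein of the U5 spliceosomal particle. The PAPSS1 and CD2BP2 members were lowest at 8 h, the shortest U2OS-CHRONO list.

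TLE3, a Groucho-type corepressor, had scores of 123.8, 219.27, 83.21, 60.25, 123.49 and 115.86. Its member, at 70097776 to 70098560 on chromosome 15, sits 386 bp from another region with a peak at 6 U2OS-CHRONO times and 5 U2OS times. FOXD1, a forkhead factor, scored 112.23, 190.6, 62.57, 57.73, 211.89 and 130.88, highest at 16 h. GNAI2, a G protein subunit, scored from 55.83 at 8 h to 280.76 at 4 h. PCBD1, a pterin dehydratase, scored from 70.28 at 16 h to 187.26 at 20 h and had a Myc peak scoring 70.79.

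Others of the 15 were at NDUFB8, a complex I subunit, the pair SLC25A32 and DCAF13, which share 1 member, PEMT, which makes phosphatidylcholine, and NUDT9, an ADP-ribose pyrophosphatase. SLC25A32 encodes a mitochondrial folate carrier and DCAF13 a ribosome biogenesis factor. The NDUFB8 member, at 100529683 to 100530127 on chromosome 10, scored 133.7, 177.03, 55.64, 56.14, 130.25 and 86.47. The PEMT member had the narrowest spread of the 15, from 69.2 at 12 h to 110.94 at 0 h. SNX33, IPO13, RTN4R, MAP1LC3B2 and ATL1 made up the rest, with mean percentiles from 39.1 to 48.2. The MAP1LC3B2 member scored 224.72 at 16 h and 139.88 at 4 h, and 51.97 to 56.67 at the other 4 times.

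By time, 592 members had a peak at 4 h, 587 at 16 h, 543 at 20 h, 514 at 0 h, 355 at 12 h and 170 at 8 h. That order is the order of the U2OS-CHRONO list lengths except that 4 and 16 h change places: the lists held 9391 peaks at 16 h, 8240 at 4 h, 6873 at 20 h, 5612 at 0 h, 3919 at 12 h and 2429 at 8 h. The part of list length in the time pattern was not tested. Among shared regions 2833 had a peak at 4 h and 2833 at 16 h, and the order was otherwise the same, with a peak in 53.6% of them at 8 h against 27.8% of members, and in 75.2% at 12 h against 58.0%. Peaks inside members made up 6.41% of the list at 16 h and 9.37% at 0 h, the lowest and highest of the 6.

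**Figure D2:**
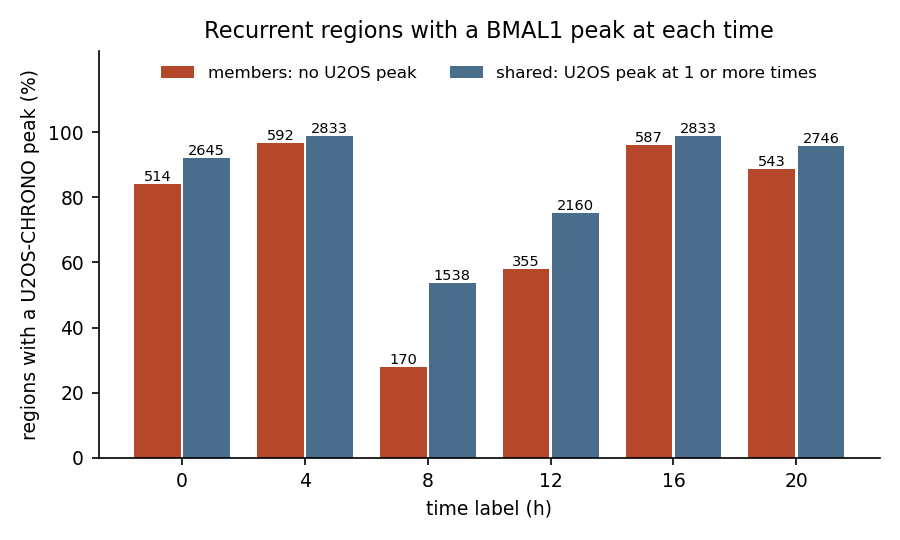
Share of 612 members (no U2OS peak) and of 2871 shared regions (a U2OS peak at 1 or more times) with a BMAL1 peak in U2OS-CHRONO at each time label; numbers above the bars are counts of regions. Both are lowest at 8 h, where 170 members and 1538 shared regions had a peak.

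A peak at exactly 4 times marked 369 members, at 5 times 173 and at all 6 times 70. The most frequent combination was 0, 4, 16 and 20 h, in 186 members (30.4%), followed by all times but 8 h in 121 (19.8%). Another 63 members had a peak at 4, 12, 16 and 20 h. Thus 8 h, or 8 and 12 h, were the times most often missing.

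Median scores of members were middling within their lists. The median score percentile was 47.1 at 0 h, 61.6 at 4 h, 40.7 at 8 h, 49.2 at 12 h, 62.9 at 16 h and 54.2 at 20 h. For shared regions it was 74.1, 80.6, 66.7, 70.0, 82.8 and 77.4 at the same times, above the members in each list. These medians were not matched for the number of U2OS-CHRONO times called. All 6 times were called in 1246 of the 2871 shared regions and in 70 of the 612 members. The median member score ran from 60.64 at 8 h to 97.09 at 4 h, where the lowest score of any list was 50. A score of 100 or more was reached by 286 of the 592 members with a peak at 4 h and by 7 of the 170 at 8 h. Members were also narrower, with a median of 495 bp against 635 bp, though a merged region widens with the number of peaks in it.

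**Figure D3:**
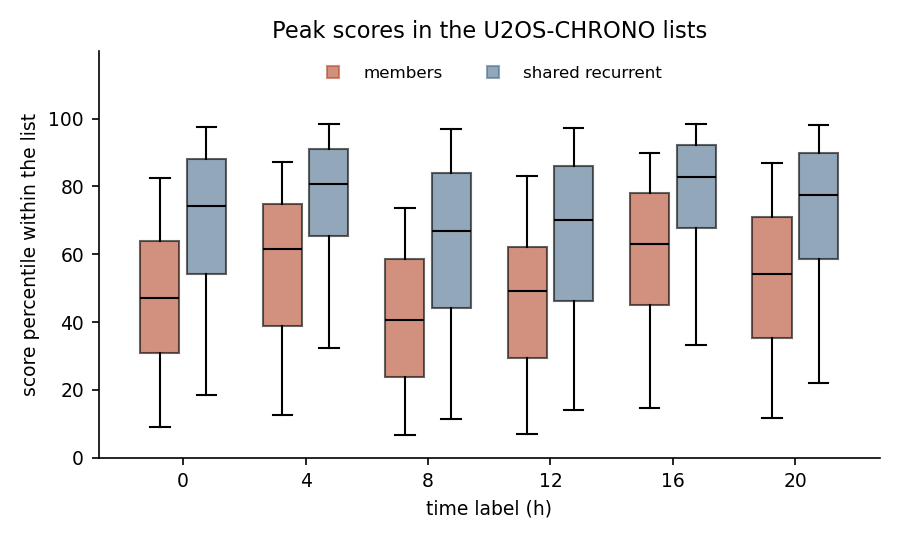
Score percentile within each U2OS-CHRONO list for members and shared regions with a peak at that time (line, median; box, quartiles; whiskers, 5th to 95th percentile). The member median lies below the shared median in all 6 lists, at 40.7 against 66.7 at 8 h and 62.9 against 82.8 at 16 h. The sets are not matched for the number of times called.

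At the edge of the rule, 756 regions had a peak at 3 U2OS-CHRONO times and none in U2OS, and 624 had 4 or more U2OS-CHRONO times and 1 U2OS time. Just inside, the highest 4-time members were a region 113956 bp from TSNARE1, with a mean percentile of 54.0, and one at ZNF260, a zinc finger gene, with 53.5. Just outside, a region in BCL9L, a Wnt coactivator, had 44.2 with 3 times, and one at POLI, a translesion polymerase, had 41.1. A region in MAP4, a microtubule protein gene, was called at each of the 6 U2OS-CHRONO times, had a mean of 92.8, and was left out for a single U2OS peak scoring 101.97 at 20 h. A region 41293 bp from GALR1, a galanin receptor, had 89.7 and was left out for a U2OS peak scoring 58.54 at 0 h.

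Some members lay close to U2OS peaks that they did not overlap. A U2OS peak stood within 500 bp of 28 members and within 1 kb of 57 (9.31%), and the median distance was 45537 bp. For 45 of the 57, the neighbouring region also had a U2OS-CHRONO peak, and for 27 it had one at 4 or more times. The lists of the lines also differed in length. The U2OS-CHRONO list was longer than the U2OS list at 6 of 6 times. With the longer list cut to the top-scoring peaks of equal number, the 159 regions that met the rule all overlapped a member. This cut removes U2OS-CHRONO peaks only and keeps every U2OS peak, so that overlap was largely fixed in advance. At 20 h, where the lists were closest in length at 6873 and 6012, 513 of the 543 members with a peak ranked within the first 6012. At 8 h, where U2OS had 337 peaks, 1 of 170 ranked within the first 337. With 16, 0 or 4 h left out of both lines, which then asks for 4 of 5 times, 289, 372 and 398 regions met the rule. Sequencing depth or enrichment and binding cannot be told apart in these lists.

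The Myc library was not used by the rule. Its peaks overlapped 60 of the 612 members, or 9.80% (Wilson 95% interval 7.69 to 12.4%), against 6.32% of all merged regions, 25.4% of shared regions (23.8 to 27.0%) and 1 of the 50 regions found at 4 or more U2OS times alone. Among the regions that met the rule at equal list sizes the share was 15.7%. Among the 344 that met it with BMAL1 scores of at least 100 it was 18.3%. Only 59 of these overlapped a member, since that filter also removes U2OS peaks, so this is not the share of high-scoring members. Of the members, 0.327% had a Myc peak with a score of at least 100. The share was larger at members with more U2OS-CHRONO times: 26 of 369 members at 4 times (7.05%), 22 of 173 at 5 (12.7%) and 12 of 70 at 6 (17.1%). Shared regions stood at 14.4% with 4 U2OS-CHRONO times and 17.1% with 5, and 474 of 1246 had a Myc peak with 6. Of the regions with 3 U2OS-CHRONO times and no U2OS time, 6.22% had a Myc peak. Median width was 495 bp for members, 349 bp for all merged regions and 635 bp for shared regions, and the shares were not matched for width. Myc and BMAL1 libraries of U2OS-CHRONO come from the same line, regions are not replicates, and no test was made across regions.

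Myc scores at members were modest. Their median was 62.06, against 72.33 at shared regions and a list maximum of 700.05, and 2 members had a score of 100 or more. The highest, 156.94, belonged to a region in ZFAT, a zinc finger gene, at 134712384 to 134713337 on chromosome 8. Its BMAL1 scores were 95.48, 159.0, 127.62, 129.44 and 67.3 at 0, 4, 12, 16 and 20 h, with no peak at 8 h. The next, 104.75, lay in RBMS3, an RNA-binding protein gene. Of the other 6 of the 8 highest, 1 is the region near YTHDF1 and 3 lie within 1 kb of an end of ENO1, the glycolytic enolase, MEF2D, a MADS-box factor, and UBAP2. The remaining 2 are in ANXA2, which encodes annexin A2, and 14092 bp from MORN3. The MEF2D member lay 322 bp from a U2OS peak. The ENO1 member, at 8877874 to 8878610 on chromosome 1, scored 107.15, 258.16, 67.36, 183.16 and 98.26 at 0, 4, 8, 16 and 20 h. The UBAP2 member, whose promoter is printed above, spans 34048325 to 34049912 on chromosome 9 and scored 102.79, 199.56, 126.73 and 100.53 at 0, 4, 16 and 20 h.

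**Figure D4:**
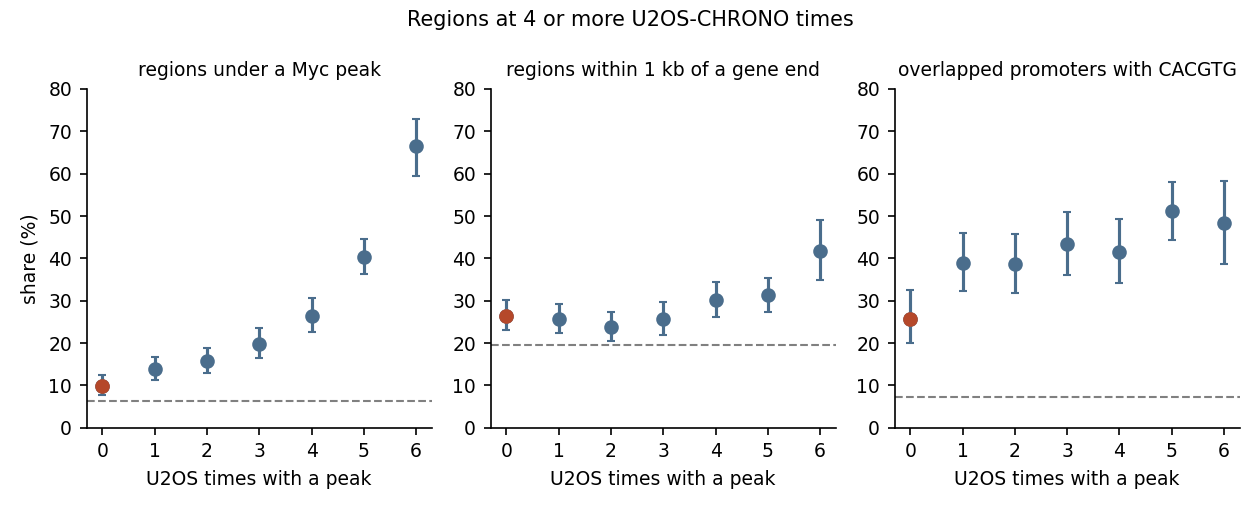
Regions at 4 or more U2OS-CHRONO times, split by the number of U2OS times with a peak (0, members, in red): share under a Myc peak, share within 1 kb of a gene end, and share of overlapped promoter windows with CACGTG. Bars are Wilson 95% intervals and dashed lines the share over all merged regions or all windows; the Myc share goes from 9.80% at 0 times to 66.5% at 6.

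The Myc share was larger at each further U2OS time, and the CACGTG share was not in strict order. Median region width also rose, from 495 bp at 0 U2OS times to 1136 bp at 6, and a wider region can meet a peak more easily. The part of width in these shares was not tested. Under a Myc peak were 13.8% of the regions with 1 U2OS time, 26.5% of those with 4 and 66.5% of those with 6. For CACGTG in overlapped windows the values were 25.8% at 0 times, 39.0% at 1, 38.6% at 2, 43.4% at 3, 41.6% at 4, 51.2% at 5 and 48.4% at 6. Regions with 3 U2OS-CHRONO times and no U2OS time had 26.1%, close to the members.

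Position relative to genes was similar in members and shared regions. Within 1 kb of an end of a protein-coding gene lay 162 members, or 26.5% (23.1 to 30.1%), against 19.5% of all merged regions and 28.0% of shared regions (26.4 to 29.7%). A protein-coding gene was overlapped by 60.0% of members and 59.3% of shared regions. The median distance to the nearest gene end was 15260 bp for members and 11949 bp for shared regions, and 25.5% and 25.2% lay over 50 kb from any. Along the genome all 612 members fell on chromosomes 1 to 22 and X. Members made up 17.6% of the 3483 regions at 4 or more U2OS-CHRONO times, from 8.82% on chromosome 22 (Wilson 95% interval 4.71 to 15.9%) to 24.0% on chromosome 9 (17.8 to 31.5%). The number of chromosome copies in the lines was not measured here.

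Core clock genes were absent from the members. Of the 20 core clock genes, 0 had a member in the gene or within 5 kb, while 14 had a shared region there. Among all 20037 protein-coding genes, 2.26% had a member and 10.2% a shared region. Clock output genes (0 of 19 with a member, 8 with a shared region) and clock kinases, ligases and cofactors (0 of 19 and 4) likewise held none. At the background share a list of 20 genes corresponds to less than 1 gene, so nothing particular to these lists follows from a count of 0.

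The E-box binding bHLH-leucine zipper factors held 2 members among 20 genes, at MLX and MNT, and 7 had a shared region. Over all protein-coding genes the shares were 2.26% and 10.2%, and the difference was not tested. MLX dimerises with the glucose-responsive MondoA and ChREBP, and MNT is a MAX partner that opposes MYC. The MLX member, at 42566868 to 42567295 on chromosome 17, was weak, with scores of 56.98, 67.24, 56.66 and 65.92 at 0, 4, 16 and 20 h and a mean percentile of 19.5. The MNT member scored 89.51, 67.39, 88.83 and 115.31 at 4, 12, 16 and 20 h. A U2OS peak lay 1652 bp from the MNT member and 30558 bp from the MLX member.

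Of 22 glucocorticoid-induced genes 2 had a member and 6 a shared region, beside 2.26% and 10.2% of all protein-coding genes. The ZBTB16 member, within the gene and 96319 bp from its nearest end, had peaks at all times but 8 h, with scores of 119.3, 189.5, 122.49, 137.92 and 118.61. The SLC19A2 member, inside a thiamine transporter gene and 2034 bp from its end, scored 53.41 to 73.7 at 4 times. Among 30 genes of MYC targets or ribosome assembly 1, NCL, had a member against 16 with a shared region. The NCL member lay 64 bp from a U2OS peak and scored 64.76, 51.25, 65.21 and 105.23 at 0, 4, 12 and 16 h. The neighbouring region, 64 bp away, had a peak at 6 U2OS-CHRONO times and 5 U2OS times. NCL encodes nucleolin of the nucleolus.

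A single gene was marked in 4 further lists. These were RPS2 among 25 ribosomal protein genes, CDK6 among 25 cell cycle genes, GABARAPL1 among 25 lysosome and autophagy genes, and NDUFB8 among 25 respiratory chain genes. The RPS2 member scored 155.71, 94.52, 67.36, 75.4 and 149.72 at 0, 4, 8, 12 and 16 h, with no peak at 20 h. The GABARAPL1 member scored 70.81, 176.74, 52.06 and 137.56 at 0, 4, 12 and 16 h and lay 977 bp from a U2OS peak. Its neighbouring region, 937 bp away, had a peak at 6 U2OS-CHRONO times and 2 U2OS times. The CDK6 member, 45143 bp from an end of that kinase gene, scored 67.34 to 90.71 at 4 times. Osteoblast genes (0 of 20) and markers of other cell types (0 of 21) had no member, and 2 and 3 of them had a shared region. Among all protein-coding genes 2.26% had a member and 10.2% a shared region. Nothing particular to these lists follows from such small member counts.

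**Figure D5:**
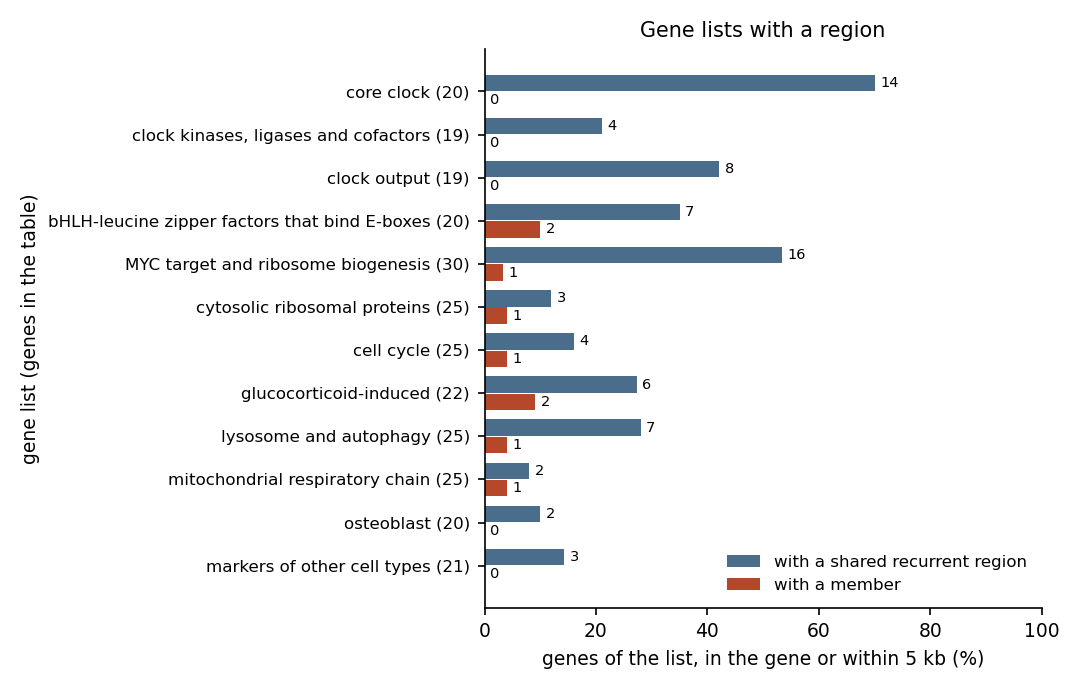
Share of the genes of 12 lists with a shared region (blue) or a member (red) in the gene or within 5 kb; numbers at the bars are genes. Of the 20 core clock genes 14 had a shared region and 0 a member, beside 10.2% and 2.26% of all protein-coding genes.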

How the data were processed

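BMAL1 chromatin immunoprecipitation and sequencing was deposited as 13 peak lists, 12 for BMAL1 and 1 for Myc; 3 input libraries were not analysed here. HOMER 4.10.3, MACS 1.4.2, bedtools and hg38 are named, without a role, per the submitters' processing notes. The sources used here do not give the aligner, control or filters. The score of each peak is the authors' own value as deposited, with no stated definition, and was used only within a list. Depth is not known, so list length and binding cannot be separated.

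Peaks sharing 1 bp were merged, and the results equalled those of bedtools 2.31.1. Genes and promoters came from RefSeq GRCh38.p14, the same assembly as hg38. The gene table gives no strand or exons, so both gene ends were used with 1 kb windows. Of 268 genes in 12 lists, 267 were found. The members and lists were chosen with earlier results of these data known. Described singly were the 12 members with the highest mean percentile, those at gene ends with 6 times, the 8 with the highest Myc score, those at list genes and those at the edge of the rule. All values are descriptions; no test was made. CANNTG was counted with CACGTG included, which departs from the planned count without it. Motifs other than E-boxes, and shares with each gene counted once, were added after seeing the data. The merging was tested on simulated data. Python 3.11.15, NumPy 2.4.6, SciPy 1.17.1, pandas 2.3.3 and matplotlib 3.10.9 were used.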

Additional observations from a re-analysis of the deposited data

How the results depend on the processing

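Merging peaks within 500 bp or on their central 200 bp, and leaving out members within 1 kb of a U2OS peak (added after seeing the data), moved neither the count of 612 by over 1.5 times nor the shares out of their intervals. The count was 344 with scores of at least 100, of which 59 overlapped a member, since that filter also removes U2OS peaks. It was 159 at equal list sizes, 1368, 243 and 70 with at least 3, 5 or 6 U2OS-CHRONO times, 1236 with up to 1 U2OS time, and 289 to 564 with a time left out. The Myc share was 18.3% with scores of at least 100, 15.7% at equal list sizes, 14.0% and 17.1% with 5 or 6 times, 0.327% with Myc scores of at least 100, and 10.3 to 14.6% with a time left out. The gene-end share was 23% and 21.4% with 5 or 6 times, 35.1% with a 5 kb window, and 19.9 to 28.1% with a time left out. The promoter share with CACGTG was 35.3% with CACGTT added and 33.3% for members covering the whole window. The cause of these shifts was not tested, beyond fewer times or peaks where the alternative removes them. No paired analysis was made, since no result came from a test. The labels give no replicate numbers, and the lines were matched by time only where lists were cut to equal size.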

Other observations

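Outside protein-coding genes lay 245 members, of which 64 overlapped a long non-coding RNA gene. Neither kind of gene was touched by 29.6% of members and 28.0% of shared regions. Of 1562 miRNA hairpins, 1 was overlapped by a member. Members were mostly scattered: 28 of them stood in 14 pairs with gaps of 10 kb or less, and 72 in 34 groups with gaps of 100 kb or less, the largest of 3.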
